A study of Mus musculus with 6 samples.

Results

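The insulin-like growth factor (IGF) system and the imprinted long non-coding RNA H19 were measured in single cells of the C3(1)-Tag mouse mammary gland. The 10 genes were listed by name, as the ligands Igf1 and Igf2, the receptor Igf1r, the binding proteins Igfbp2 to Igfbp7, and H19, out of 31055 counted features. They were listed for their levels in the tumour stroma, so they were chosen by their Tumor values in fibroblasts and in stromal cells with T antigen, which are given below as a description, with no test. The list was made with earlier results of these data known. Whether endothelial or epithelial values were among those results is not given. Levels were read in 4 cell classes: fibroblast-like, epithelial-like and endothelial-like cells, and T-antigen-positive stromal cells.

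All 6 libraries came from female C3(1)-Tag mice, in which a prostatein C3(1) gene promoter drives the SV40 large T antigen in the mammary epithelium and in some other tissues, so that no group was free of the transgene. Prepuberty was the whole gland at 5 weeks, DCIS the whole gland with in situ lesions at 14 weeks, and Tumor a palpable tumour at more than 18 weeks, with 2 libraries each. The labels do not say that the libraries of a state came from different animals, so p-values measure only the spread between these libraries. The labels give the same overnight digestion and the same v2 kit for all of them, but by the methods of the study the tumours were dissociated with a different kit and Tumor 2 was made with v3 chemistry. If the methods are right, dissociation and the Tumor state cannot be told apart.

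IGF-I and IGF-II are secreted peptides that bind the IGF-I receptor, a tyrosine kinase, and in the mammary gland stromal IGF-I acts on the ducts. Most of each ligand is carried by IGF-binding proteins, which prolong its life and limit its access to the receptor, and proteases such as pregnancy-associated plasma protein A release it again. Igf2 and H19 are neighbours with opposite imprints, Igf2 being read from the paternal copy and H19 from the maternal copy, and H19 RNA is the precursor of miR-675.

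The 6 libraries held 21537 cells and 237076023 UMIs (unique molecular identifiers, each standing for 1 captured RNA molecule) after filtering, with a median of 6568 to 13620 UMIs per cell in a library. Pairs of libraries shared 9 to 39 cell barcodes. Fibroblast-like cells numbered 2054 and 1414 in Prepuberty, 572 and 1011 in DCIS, and 148 and 34 in Tumor, and endothelial-like cells numbered 716, 675, 427, 355, 76 and 33 in the same order. Epithelial-like cells numbered 800, 102, 1339, 1008, 3350 and 279, and those of Tumor 2 were shallow, with a median of 3334 UMIs. Levels are given in CPM (counts per 1000000), the UMIs of a gene scaled by all UMIs of the cells of a class in a library, with exact 95% Poisson intervals that cover counting error only.

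The class names were checked against their markers. All 10 fibroblast markers had UMIs in the fibroblast-like cells of every library. All 10 endothelial markers had UMIs in the endothelial-like cells of every library. T-antigen-positive stromal cells were 1 cluster of 186 cells, 184 of them in Tumor 2, in which 51.6% of cells had a T-antigen UMI, 7 of 10 mesenchymal and 5 of 10 fibroblast markers passed and no epithelial marker did. T-antigen UMIs were found in 0.103% to 0.180% of cells of the 3 fibroblast-like clusters of the earlier glands. The 28 cells of Tumor 1 that fell in a fibroblast-like cluster but had a T-antigen UMI were kept apart.

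Different clusters held most of a class in different states. Cluster 19, with Cthrc1, Lrrc15 and Col1a1 among its leading genes, held 146 of 148 fibroblast-like cells of Tumor 1 and 28 of 34 of Tumor 2, whereas Prepuberty and DCIS cells lay mostly in clusters 0, 3 and 5. Cluster 24, with Esm1, Apln and Plvap among its leading genes, held 66 of 76 endothelial-like cells of Tumor 1 and 16 of 33 of Tumor 2, and those of Prepuberty and DCIS lay in clusters 6 and 7. Epithelial-like cells of Tumor 1 lay in clusters 2 and 4, and those of the other libraries in clusters 1, 9 and 14.

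**Figure D1:**
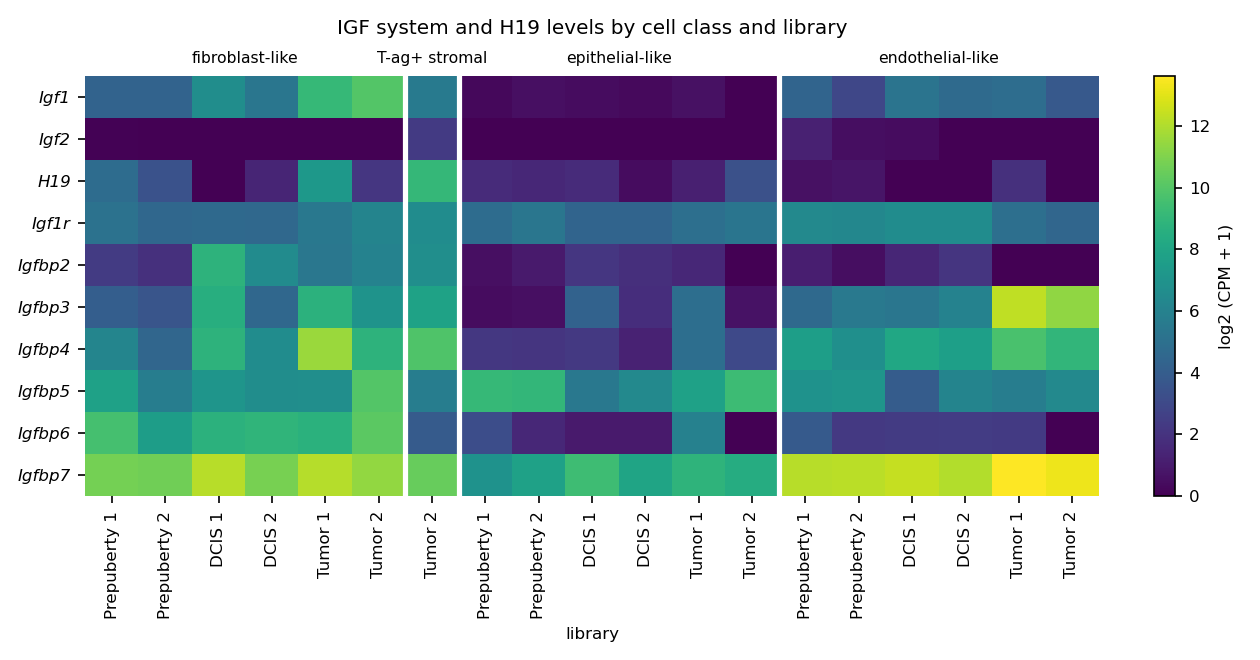
Levels of the 10 genes (rows) in each library (columns) of 4 cell classes, as log2 (CPM + 1) on the colour scale; only Tumor 2 had enough T-antigen-positive stromal cells. Igf1 was brightest in fibroblast-like cells of both Tumor libraries, Igfbp3 and Igfbp7 in endothelial-like cells of both, and H19 in the T-antigen-positive stromal cells.

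Within fibroblast-like cells Igf1 was highest in the tumours. In the fibroblast-like cells of Prepuberty 1 and 2 Igf1 stood at 19 and 19.2 CPM, and DCIS 1 and 2 had 99.4 and 39.6 CPM of it. Tumor 1 and 2 had 559.7 and 989.6 CPM. The 3 states did not overlap. After integration, which put T-antigen-positive stromal cells among the fibroblast-like clusters, Tumor 1 had 449.2 CPM and Tumor 2 had 161.9 CPM, still above the 95.02 and 38.4 CPM of DCIS, but in the reverse order. The mean was 19.1 ± 0.121 CPM (SD, n = 2) in Prepuberty, 69.5 ± 42.3 CPM (SD, n = 2) in DCIS and 774.7 ± 304 CPM (SD, n = 2) in Tumor. Between Tumor and DCIS the fitted log2 fold change of Igf1 was 2.87 (SE 0.53), and it lay between 2.30 and 3.65 with 1 library left out and was 1.62 after integration.

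More cells with Igf1 accompanied the higher level. After each cell was thinned to 3000 UMIs, 4.69% and 4.58% of fibroblast-like cells had an Igf1 UMI in Prepuberty, 16.1% and 8.09% in DCIS, and 57.8% and 83.9% in Tumor. Without thinning the shares were 12.1%, 8.84%, 32.0%, 13.6%, 79.1% and 82.4%. Epithelial-like cells, which should lack Igf1, gave a background of 0% to 1.11% when thinned and 0% to 0.980% without thinning, with median depths of 3334 to 12647 UMIs beside 7911 to 10957.5 UMIs in the fibroblast-like cells.

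The higher Igf1 level was also present within cluster 19, the matrix-rich fibroblast cluster that DCIS and Tumor libraries shared. There Igf1 stood at 197.6 CPM in DCIS 1 (121 cells) and 148.8 CPM in DCIS 2 (45 cells), against 565.6 CPM in Tumor 1 (146 cells) and 1012 CPM in Tumor 2 (28 cells). In DCIS, clusters 0 and 3 lay lower, at 89.8 and 61.3 CPM and at 8.32 and 5.37 CPM. The 28 Tumor 1 fibroblast-like cells with a T-antigen UMI had 501.0 CPM of Igf1 (431.5 to 578.3), beside 523.6 to 597.8 CPM for those without.

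T-antigen-positive stromal cells did not share this level. Their Igf1 was 47.5 CPM (141 UMIs, 40.0 to 56.0) beside 989.6 CPM in the fibroblast-like cells of the same library, a ratio of 0.0480 (0.0390 to 0.0589). Of their Igf1 UMIs, 80.1% came from 10 cells. Macrophage-like cells of Prepuberty held 46.1 CPM (28.5 to 70.5) and 51.1 CPM (32.7 to 76.0) of Igf1, above the fibroblast-like cells of the same libraries. Endothelial-like cells held 6.39 to 36.1 CPM of Igf1, 20.3 CPM of it in Prepuberty 1, with the Tumor libraries (27.7 and 13.1 CPM) inside the range of the others.

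Markers of other cells stood beside these levels. The 10 fibroblast markers summed to 35385 and 42578 CPM in the fibroblast-like cells of the tumours and to 6639 to 13514 CPM in those of the earlier glands, and the mesenchymal markers to 45682 and 38120 CPM against 5987 to 11450 CPM. The 10 endothelial markers summed to 26.4 to 43.7 CPM in all 6 libraries. Myoepithelial markers summed to 1881 and 825.3 CPM in Tumor 1 and 2 and to 46.3 to 1069 CPM in the earlier glands, with Krt5 and Oxtr at 0 in both Tumor libraries, and pericyte markers summed to 527.0 and 438.3 CPM against 89.8 to 139.7 CPM. Epithelial markers also lay above every earlier library, at 163 and 188.3 CPM against 17.4 to 103.9 CPM, with Elf5 at 0 in both tumours. Schwann markers did so at 125.2 and 284.2 CPM against 39.9 to 93.9 CPM, B cell markers at 323.9 and 547.9 CPM against 109.8 to 152.0 CPM, with Ms4a1 at 0, and red cell markers at 3.77 and 17.1 CPM against 0.196 to 1.40 CPM. Macrophage markers lay below, at 113.8 and 407.5 CPM against 528.6 to 1043 CPM, as did lymphatic endothelial markers, at 214.5 and 263.7 CPM against 405.2 to 903.8 CPM. Their part in the Igf1 level was not tested.

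Igf2 was close to absent. It had 1 UMI in all fibroblast-like cells, 1 UMI in all epithelial-like cells, and 8, 3 and 1 UMIs in the endothelial-like cells of Prepuberty 1, Prepuberty 2 and DCIS 1. T-antigen-positive stromal cells of Tumor 2 held 12 Igf2 UMIs, or 4.04 CPM (2.09 to 7.06), and clusters 11 and 12 of that library, 1710 cells with no cell type name of which 59.8% had a T-antigen UMI, held 13 UMIs, or 0.370 CPM (0.197 to 0.633). The other 5 fibroblast, 5 epithelial and 3 endothelial libraries held none. A count of 0 in the fibroblast-like cells, taken as 3 counts of the total, allowed up to 10.3 CPM in Tumor 2 and 1.89 CPM in Tumor 1, so that a level like that of the T-antigen-positive stromal cells was not detectable in Tumor 2 fibroblasts. After integration the fibroblast-like cells of Tumor 2 held 5 UMIs, or 2.33 CPM (0.757 to 5.44), and its epithelial-like cells 5 UMIs, or 0.189 CPM (0.0615 to 0.442). Igf2 did not pass the filter on low counts in any class.

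Igf1r, the receptor tyrosine kinase, fell in tumour endothelium. In endothelial-like cells Igf1r stood at 83.5 and 76.5 CPM in Prepuberty, 98.2 and 98.5 CPM in DCIS, and 30.4 and 21.8 CPM in Tumor 1 and 2. Both Tumor libraries lay below all 4 others. The log2 fold change was -2.14 (SE 0.31, adjusted p 0.00416, edgeR quasi-likelihood test) for Tumor against DCIS and -1.54 (SE 0.31, adjusted p 0.0144, same test) for Tumor against Prepuberty. The Tumor levels rest on few UMIs, with intervals of 19.2 to 45.5 CPM (23 UMIs) and 7.07 to 50.8 CPM (5 UMIs). Without Prepuberty 1 the second value was -1.37 with an adjusted p of 0.0591 by the same test.

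Among the 7 members tested in endothelial-like cells, 2 passed for Tumor against DCIS, Igfbp3 higher and Igf1r lower, where 14.4% of all genes tested passed, 7.48% higher and 6.94% lower. For Tumor against Prepuberty 4 of 7 passed, Igfbp3, Igfbp4 and Igfbp7 higher and Igf1r lower. There 12.9% of all genes passed, 7.6% higher and 5.31% lower. Since the members were listed with earlier results of these data known, these counts are a description. For DCIS against Prepuberty 0 of 7 passed by edgeR, where 0% of all genes passed; 3 members, Igfbp5, Igf1 and Igf1r, had an unadjusted p under 0.05, as 12.1% of all genes did, DESeq2 called 0 of them (0.617% of all genes), and edgeR with no filter on low counts called 2, Igf1 and Igfbp5 (2.88% of all genes).

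In fibroblast-like cells Igf1r stood at 34.1 and 22.6 CPM in Prepuberty, 24.1 and 23.3 CPM in DCIS, and 42.8 and 68.5 CPM in Tumor. On this scale Tumor libraries lay above the others, and the fitted log2 difference of Tumor against DCIS, which also scales by TMM factors (0.822 and 0.845 in DCIS, 1.07 and 1.41 in Tumor), was 0.62 (SE 0.39). Within cluster 19, however, the 4 libraries overlapped, at 35.3 and 48.6 CPM in DCIS and 43.2 and 72.6 CPM in Tumor. T-antigen-positive stromal cells had 96.4 CPM (85.5 to 108.2), a ratio to the fibroblast-like cells of Tumor 2 of 1.41 (0.894 to 2.34). It rests on 286 and 20 UMIs of 1 library, and its interval covers counting error only.

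Epithelial Igf1r was lower in DCIS than in the other states without passing the test. It stood at 26.9 and 39.1 CPM in Prepuberty, 19.5 and 19.8 CPM in DCIS, and 30.3 and 38.7 CPM in Tumor, and the DCIS libraries lay below all others. The log2 fold change of DCIS against Prepuberty was -0.61 (SE 0.28, adjusted p 0.415, edgeR).

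**Figure D2:**
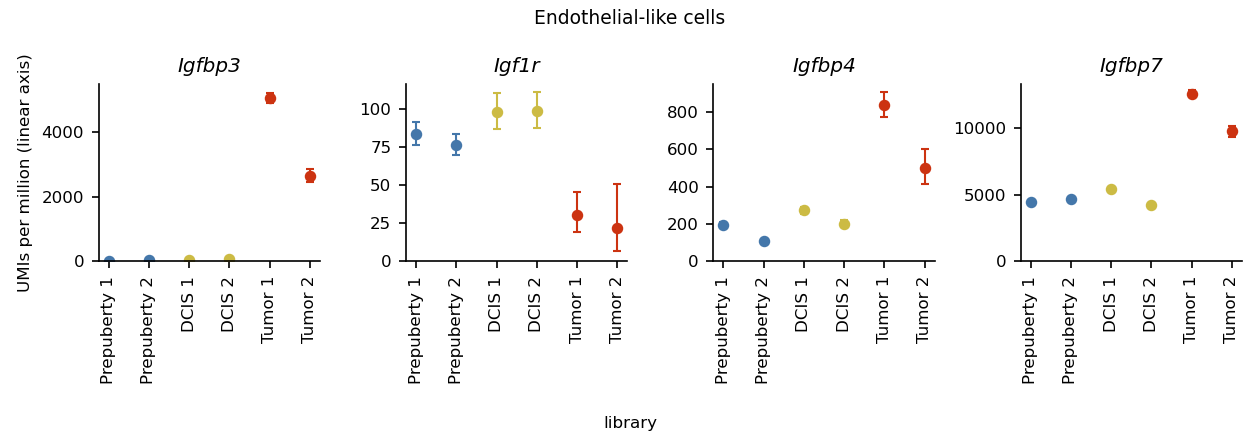
Igfbp3, Igf1r, Igfbp4 and Igfbp7 in endothelial-like cells, each point 1 library on a linear CPM axis that starts at 0, with exact 95% Poisson intervals as bars. Igfbp3, Igfbp4 and Igfbp7 were highest and Igf1r lowest in the 2 Tumor libraries (red) beside Prepuberty (blue) and DCIS (yellow).

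Igfbp3, the binding protein that carries most IGF in the blood, had the largest fold change of the 7 members tested in endothelial-like cells. In endothelial-like cells Igfbp3 stood at 24.1 and 44.4 CPM in Prepuberty, 39.3 and 65.0 CPM in DCIS, and 5059 and 2655 CPM in Tumor 1 and 2. The Tumor libraries lay far above the others, a mean of 3857 ± 1700 CPM (SD, n = 2) against 52.1 ± 18.2 CPM (SD, n = 2) in DCIS. The log2 fold change was 5.91 (SE 0.53, adjusted p 0.000781, edgeR) against DCIS and 6.83 (SE 0.55, adjusted p 0.000492, edgeR) against Prepuberty. Both calls held under all 13 alternative settings, with values of 5.11 to 6.37 and 6.03 to 7.46.

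The Igfbp3 rise lay in cluster 24, of which Igfbp3 was the leading gene. In cluster 24 Igfbp3 stood at 5322 CPM in Tumor 1 and 2958 CPM in Tumor 2, and the 11 cells of Tumor 2 in cluster 6 held 1 UMI. At 3000 UMIs per cell, 82.1% (70.8 to 90.4) and 72.2% (46.5 to 90.3) of endothelial-like cells had an Igfbp3 UMI in Tumor 1 and 2, against 4.62%, 6.37%, 7.30% and 8.90% in the earlier libraries. Without thinning the shares were 84.2% and 54.5% in Tumor and 8.38% to 14.4% in the others. Macrophage-like cells, which should lack Igfbp3, gave a background of 0.619% in Tumor 1 and 0 of 132 cells in Tumor 2 when thinned, which allows a share of up to 2.27%, and of 1.52% and 0% without thinning. Their median depths were 5310.5 and 8735 UMIs, beside 7252.5 and 3919 UMIs in the endothelial-like cells. In Tumor 2 only 18 of 33 cells were deep enough to be thinned.

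Igfbp4 and Igfbp7 were also higher in tumour endothelium. Igfbp4 stood at 197.0 and 108.7 CPM in Prepuberty, 272.4 and 201.4 CPM in DCIS, and 836.7 and 500.5 CPM in Tumor. Igfbp7, a secreted protein of vessel walls that binds IGF weakly, stood at 4466 and 4699 CPM in Prepuberty, 5385 and 4231 CPM in DCIS, and 12533 and 9709 CPM in Tumor. For both genes the Tumor libraries lay above all 4 others.

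Against Prepuberty the log2 fold change was 2.10 for Igfbp4 (SE 0.46, adjusted p 0.0197, edgeR) and 1.25 for Igfbp7 (SE 0.35, adjusted p 0.0497, edgeR). Against DCIS neither passed, at 1.17 for Igfbp4 (adjusted p 0.112, edgeR) and 0.86 for Igfbp7 (adjusted p 0.132, edgeR). Igfbp4 did pass with no filter on low counts (1.08, adjusted p 0.0130, edgeR), where 13.8% of all genes passed. With the replicate number as a block both passed, Igfbp4 at 1.11 (adjusted p 0.0138, edgeR) and Igfbp7 at 0.85 (adjusted p 0.0109, edgeR). The Igfbp4 call against Prepuberty was lost without Prepuberty 2 (1.62) and without Tumor 1 (1.41). The Igfbp7 call against Prepuberty was lost in 9 of 13 alternatives. Among them was each of the 6 fits with 1 library left out, where its value was 0.81 to 1.51.

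Igfbp4 also differed between the endothelial clusters of the early gland. In cluster 7, with the venular genes Ackr1 and Selp among its leading genes, Igfbp4 stood at 439.3, 433.8, 372.1 and 423.7 CPM in Prepuberty 1, Prepuberty 2, DCIS 1 and DCIS 2, and in cluster 6, with the capillary gene Gpihbp1, at 18.7, 21.9, 17.5 and 16.4 CPM. The libraries of each cluster lay close together. In cluster 24 of the tumours Igfbp4 stood at 857.9 and 528.9 CPM.

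Markers of other cells were also read in the endothelial-like cells. The 10 fibroblast markers summed to 382.7 CPM in Tumor 1 and 13.1 CPM in Tumor 2, against 66.6 to 342.7 CPM in the earlier libraries, and in Tumor 2 Pdgfra, Lum, Col1a1 and Col1a2 were at 0. The mesenchymal markers, which include the vessel-wall genes Sparc and Vim, summed to 13317 and 10362 CPM in Tumor and to 3116 to 3668 CPM before. The 10 endothelial markers summed to 8225 and 9017 CPM in Tumor, against 4760 to 5889 CPM. Macrophage markers lay below every earlier library, at 146.5 and 69.6 CPM against 334.5 to 608.8 CPM, as did B cell markers, at 161.0 and 87.0 CPM against 319.9 to 350.6 CPM, and lymphatic markers, at 3.96 and 0 CPM against 18.2 to 298.4 CPM. Adipocyte markers were at 0 in both tumours against 6.66 to 127.6 CPM, and muscle markers at 0 against 7.498 to 15.5 CPM. Red cell markers stood at 3686 CPM in Tumor 2, 1.32 CPM in Tumor 1 and 33.0 to 656.7 CPM in the earlier libraries. The part of these markers in the Igfbp levels was not tested.

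The promoters of the binding protein genes that were higher in tumour endothelium are shown because all 3 genes passed the test there against Prepuberty. Each sequence runs from 250 bases before to 50 bases after the annotated start (RefSeq, GRCm38.p6), on the strand of the gene, in lower case with matches to TATAAA or to CCAAT, and to GGGCGG or to ACGTG, on either strand in capitals (a match on the other strand is printed as its reverse complement). The windows are Igfbp3, chr11:7213874-7214173, minus strand; Igfbp4, chr11:99040994-99041293, plus strand; and Igfbp7, chr5:77407996-77408295, minus strand.
Igfbp3: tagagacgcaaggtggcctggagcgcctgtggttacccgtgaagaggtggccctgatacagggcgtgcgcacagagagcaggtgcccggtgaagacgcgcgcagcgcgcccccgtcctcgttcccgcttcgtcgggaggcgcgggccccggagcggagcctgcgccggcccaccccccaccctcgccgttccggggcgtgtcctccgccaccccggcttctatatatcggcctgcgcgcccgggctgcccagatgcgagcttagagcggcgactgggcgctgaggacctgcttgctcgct
Igfbp4: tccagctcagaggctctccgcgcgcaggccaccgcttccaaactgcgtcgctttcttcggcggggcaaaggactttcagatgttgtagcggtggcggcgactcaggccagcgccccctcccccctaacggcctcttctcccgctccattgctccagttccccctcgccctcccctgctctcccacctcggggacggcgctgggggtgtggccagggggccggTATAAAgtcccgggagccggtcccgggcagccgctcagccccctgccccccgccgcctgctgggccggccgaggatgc
Igfbp7: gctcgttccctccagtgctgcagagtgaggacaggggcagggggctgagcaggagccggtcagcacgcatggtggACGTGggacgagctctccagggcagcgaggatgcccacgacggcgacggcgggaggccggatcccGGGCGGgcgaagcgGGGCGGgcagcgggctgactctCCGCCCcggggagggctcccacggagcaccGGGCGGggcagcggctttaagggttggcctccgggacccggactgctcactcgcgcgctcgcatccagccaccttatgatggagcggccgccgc

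The 3 windows had no motif in common. Igfbp3 held none of the 4, Igfbp4 held TATAAA at position -28, and Igfbp7 held GGGCGG at 4 positions and ACGTG at position -175. Of 32851 promoters of this length, 13.6% held TATAAA, 37.4% CCAAT, 35.7% GGGCGG and 19.6% ACGTG on either strand. These matches describe the letters of the windows only.

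The binding proteins of fibroblast-like cells differed in their pattern over the states. Igfbp2 stood at 4.16 and 2.64 CPM in Prepuberty, 448.0 and 93.0 CPM in DCIS, and 40.9 and 65.1 CPM in Tumor. The DCIS libraries lay above all others. The log2 fold change of DCIS against Prepuberty was 6.53 (SE 0.84, adjusted p 0.273, edgeR), which did not pass, and without DCIS 2 it was 7.27 (adjusted p 0.0139, edgeR, where 0.033% of all genes passed), in a fit that assumes the lone DCIS library to vary like the other states. Most of the Igfbp2 UMIs of DCIS lay in cluster 19, of which Igfbp2 was a leading gene, at 1793 CPM (2232 UMIs) and 2010.0 CPM (662 UMIs), where the Tumor libraries had 41.3 and 68.9 CPM.

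In fibroblast-like cells 0 of 9 members tested passed for DCIS against Prepuberty by edgeR, where 0% of all genes passed. Of the 9, 5 had an unadjusted p under 0.05, as 9.46% of all genes did, DESeq2 called Igfbp2 and Igf1 (0.651% of all genes), and edgeR with no filter on low counts called 5 (1.61% of all genes). For Tumor against DCIS, the contrast that chose the members, 3.02% of all genes passed, 1.48% higher and 1.54% lower. There, 4 of 9 members (Igf1, H19, Igf1r and Igfbp4) were higher and 1 (Igfbp2) was lower in both Tumor than in both DCIS libraries, where 43% of all genes tested were higher and 15.5% lower in this way. For Tumor against Prepuberty, where 3.35% of all genes passed, 2.36% higher and 0.989% lower, 6 members were higher in both Tumor libraries, Igf1, Igf1r, Igfbp2, Igfbp3, Igfbp4 and Igfbp7, and 0 were lower, where 31.3% of all genes were higher and 18.6% lower. The members were chosen on these libraries, and nothing is read from these counts.

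**Figure D3:**
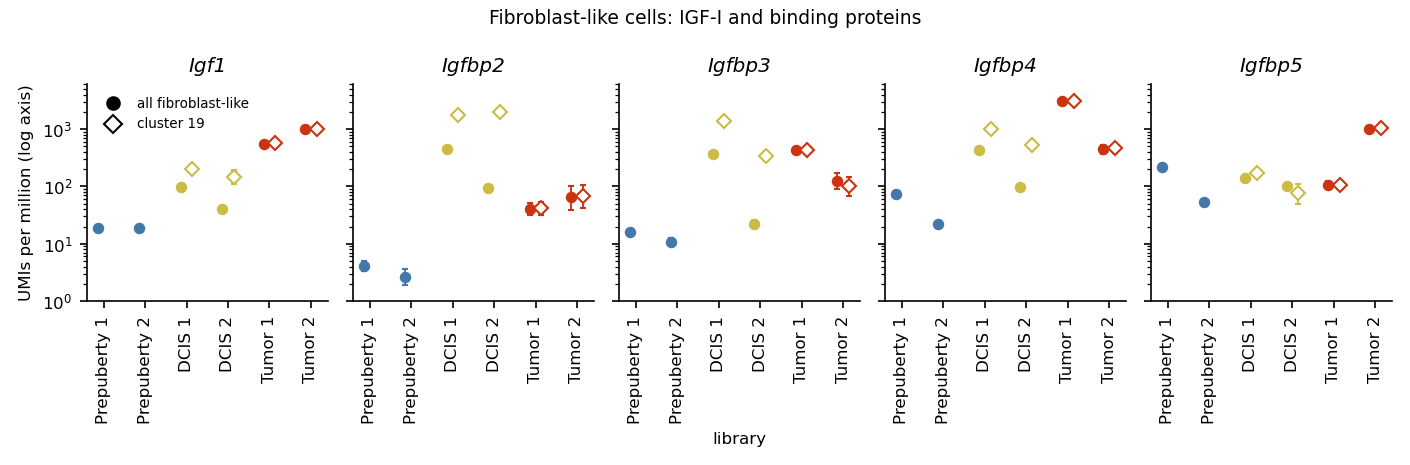
Igf1 and Igfbp2 to Igfbp5 in fibroblast-like cells, 1 point per library on a log CPM axis with exact 95% Poisson intervals. Filled circles are the whole class and open diamonds are cluster 19; Igf1 was highest in both Tumor libraries either way, and Igfbp2 was highest in cluster 19 of both DCIS libraries.

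Igfbp3 and Igfbp4 differed between the libraries of a state. In fibroblast-like cells Igfbp3 stood at 15.9 and 10.9 CPM in Prepuberty, 364.7 and 22.3 CPM in DCIS, and 427.0 and 126.7 CPM in Tumor. The DCIS and Tumor libraries overlapped, and the log2 difference between them, 0.08 (SE 1.07), was -1.44 without Tumor 1, -0.88 without DCIS 2 and 3.17 without DCIS 1. In cluster 19, Igfbp3 was 1407 and 343.1 CPM in DCIS and 431.5 and 101.6 CPM in Tumor, so that the tumours were not higher within the cluster.

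Igfbp4, which binds IGF-I until it is cut by pregnancy-associated plasma protein A, stood at 73.4 and 21.9 CPM in Prepuberty, 439.4 and 97.0 CPM in DCIS, and 3070.4 and 441.7 CPM in Tumor. Tumor 1 stood alone at the top, and Tumor 2 and DCIS 1 were nearly level, although after integration Tumor 2 had 815.3 CPM and DCIS 1 had 434.7 CPM. The log2 difference of Tumor against DCIS was 2.30 (SE 1.09), and -0.10 without Tumor 1. In cluster 19 of DCIS 1 and 2, Igfbp4 stood at 1020.2 and 537.4 CPM, above the 460.8 CPM of Tumor 2 and below the 3097 CPM of Tumor 1.

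The 2 tumours differed in Igfbp5 in the opposite sense. Igfbp5 stood at 222.5 and 54.3 CPM in Prepuberty, 138.6 and 100.1 CPM in DCIS, 106.3 CPM in Tumor 1 and 999.9 CPM in Tumor 2. Tumor 2 alone lay outside the range of the other libraries, and after integration it did not, at 156.7 CPM against 56.9 to 218.4 CPM. The log2 difference of Tumor against DCIS, 1.48 (SE 0.91), was -0.60 without Tumor 2 and -0.63 when libraries were integrated before clustering.

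Igfbp6, which binds IGF-II more tightly than IGF-I, stood at 773.1, 193.2, 424.7, 479.7, 413.8 and 1181 CPM in fibroblast-like cells of Prepuberty 1 and 2, DCIS 1 and 2, and Tumor 1 and 2. Igfbp7 stood at 1749, 1597, 4583, 1795, 4330.2 and 2716 CPM in the same order. After integration Tumor 2 had 176.3 CPM of Igfbp6 and 1363 CPM of Igfbp7. Neither gene separated Tumor from DCIS before it. The log2 difference was 0.17 (SE 0.67) for Igfbp6, -0.56 without Tumor 2 and -1.49 with integrated clusters, and -0.36 (SE 0.55) for Igfbp7, 0.44 without DCIS 1.

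T-antigen-positive stromal cells carried the same binding proteins as the fibroblast-like cells of the same library, at different levels. Their Igfbp6 was 14.2 CPM (10.2 to 19.1) and their Igfbp5 was 53.6 CPM (45.6 to 62.6), ratios of 0.0120 (0.00848 to 0.0165) and 0.0536 (0.0439 to 0.0652). Igfbp7, at 1372 CPM, had a ratio of 0.505 (0.468 to 0.546). The remaining binding proteins lay on the other side, with ratios of 2.11 (1.77 to 2.53) for Igfbp4 at 931.2 CPM, 1.83 (1.31 to 2.62) for Igfbp3 at 231.9 CPM and 1.63 (1.02 to 2.74) for Igfbp2 at 105.8 CPM. These ratios compare the cells of 1 library, 184 against 34, and have no replicate.

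Cells of that cluster with and without a T-antigen UMI had overlapping intervals for 9 of the 10 genes. For the 96 cells with and the 88 cells without one, Igfbp4 was 965.2 and 878.1 CPM, Igfbp3 was 235.8 and 225.8 CPM, and Igf1r was 92.4 and 102.6 CPM. Igfbp5 was 63.6 CPM (52.5 to 76.4) and 37.9 CPM (27.6 to 50.9), and these intervals did not overlap. The cells with a T-antigen UMI were deeper, with a median of 15934.5 UMIs against 12615.5. All these cells came from Tumor 2, with no replicate, and the intervals cover counting error only. So they cannot decide whether the cells were alike or differed, for Igfbp5 or for the other genes.

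Epithelial-like cells expressed mainly Igfbp5 and Igfbp7 of the members. Igfbp5, which rises during involution of the mammary gland after lactation, stood at 558.9 and 519.7 CPM in Prepuberty, 42.9 and 84.9 CPM in DCIS, and 224.2 and 645.9 CPM in Tumor. The DCIS libraries lay below all others. The Tumor 2 value rests on 279 shallow cells. It leaves out the unnamed T-antigen-positive clusters of that library, which held 211.5 CPM. After integration Tumor 2 had 1331 epithelial-like cells and 277.6 CPM of Igfbp5, and Tumor 1 had 247.2 CPM. Both then lay below Prepuberty 1 and 2, at 558.2 and 485.3 CPM, and above DCIS, at 43.6 and 85.1 CPM. Without integration the log2 fold change was -2.96 for DCIS against Prepuberty (SE 0.53, adjusted p 0.259, edgeR) and 2.33 for Tumor against DCIS (SE 0.52, adjusted p 0.136, edgeR), and neither passed, while by DESeq2 both did (-2.96, adjusted p 1.36e-05, and 2.33, adjusted p 0.00101).

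The lower Igfbp5 of DCIS was seen within each of the 3 epithelial clusters that Prepuberty and DCIS shared. In cluster 9, with the milk genes Csn1s1 and Csn1s2a, Igfbp5 was 718.0 and 610.2 CPM in Prepuberty and 137.7 and 161.7 CPM in DCIS. In cluster 1 it was 159.7 and 101.8 CPM in Prepuberty and 27.9 and 25.9 CPM in DCIS. In cluster 14, with Tph1 and Cited1, Igfbp5 was 18.4 and 5.64 CPM in Prepuberty and 3.64 and 2.91 CPM in DCIS, the latter on 4 and 7 UMIs. The Prepuberty and DCIS libraries overlapped in none of the 3 clusters, although the counting intervals of cluster 14 did.

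The 2 tumours had different epithelial clusters. In Tumor 1, Igfbp5 was 417.8 CPM in cluster 2 and 31.7 CPM in cluster 4. In Tumor 2, Igfbp5 was 1920.1 CPM in the 43 cells of cluster 9, 104.4 CPM in cluster 1 and 13.5 CPM in cluster 14. Clusters of Tumor 2 lay above the same clusters of DCIS, but the epithelial-like cells of that library were few and shallow.

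**Figure D4:**
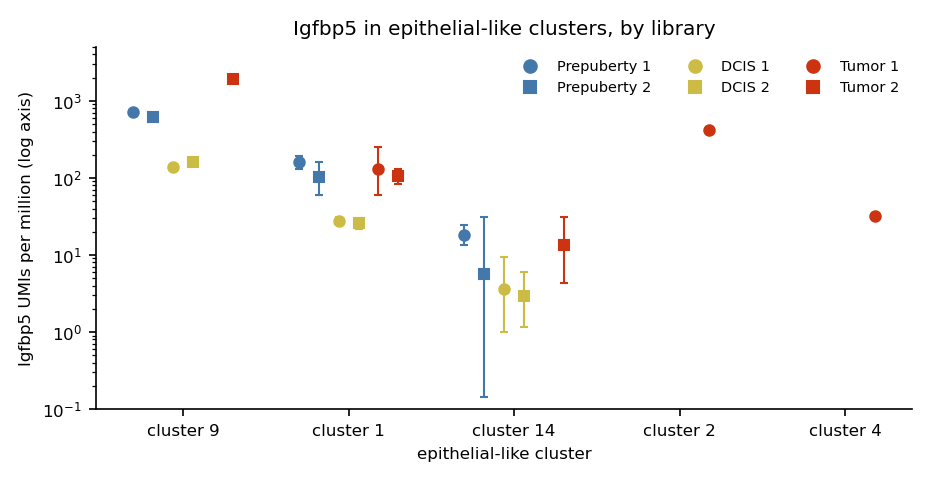
Igfbp5 in the 5 epithelial-like clusters, 1 point per library with at least 10 cells in the cluster, on a log CPM axis with exact 95% Poisson intervals. Within clusters 9, 1 and 14 both DCIS libraries (yellow) lay below both Prepuberty libraries (blue), and in clusters 2 and 4 only Tumor 1 had that many cells.

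By edgeR with the filter on low counts, no member passed in the epithelium of all 6 libraries. For DCIS against Prepuberty, Tumor against DCIS and Tumor against Prepuberty, 0 of 8 members tested passed by edgeR, where 0%, 0% and 0% of all genes passed, with 4, 3 and 2 members at an unadjusted p under 0.05, as were 12.5%, 19.2% and 21.1% of all genes. DESeq2 called Igfbp5 in the first comparison, Igfbp4 and Igfbp5 in the second and 0 in the third, where it called 1.71%, 5.52% and 7.05% of all genes. With no filter on low counts edgeR called 4, 3 and 3 members and 3.01%, 6.42% and 8.01% of all genes. Without Tumor 2, Igfbp4 (3.23, adjusted p 0.0133) and Igfbp6 (5.76, adjusted p 0.00517) passed for Tumor 1 against DCIS, and Igfbp3 (6.02, adjusted p 0.0212), Igfbp4 (2.89, adjusted p 0.0175) and Igfbp6 (3.19, adjusted p 0.0164) for Tumor 1 against Prepuberty, in the edgeR fit, which then assumes that the lone tumour varies like the other states. That fit called 10.9% and 15.4% of all genes in these comparisons.

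Among epithelial-like cells Igfbp4 and Igfbp6 were highest in Tumor 1, and for Igfbp4 this turned with the clustering. Igfbp4 stood at 29.4 CPM in Tumor 1, 7.14 CPM in Tumor 2 and 1.46 to 3.84 CPM in the other libraries. Igfbp6 stood at 62.5 CPM in Tumor 1, had no UMI in Tumor 2 and stood at 0.954 to 8.22 CPM in the others. The Tumor 2 values rest on 279 shallow cells and leave out clusters 11 and 12 of that library, which held 172.1 CPM of Igfbp4, 5.10 CPM of Igfbp6 and 32.8 CPM of Igfbp3. After integration epithelial-like cells of Tumor 2 numbered 1331, and Igfbp4 stood at 55.9 CPM there, 23.2 CPM in Tumor 1 and 23.5 CPM in Prepuberty 2, while Igfbp6 stayed highest in Tumor 1, at 51.0 CPM against 3.48 CPM in Tumor 2. Within Tumor 1, cluster 4 (Pthlh, Inhba) was higher than cluster 2 in both, with 50.1 against 8.72 CPM of Igfbp4 and 100.9 against 23.9 CPM of Igfbp6. Epithelial Igfbp3 followed a different order, with 29.7 CPM in Tumor 1, 18.4 CPM in DCIS 1, 2.48 CPM in DCIS 2 and 0.595 CPM or less in the remaining 3 libraries. It too turned with the clustering, since after integration Tumor 2 had 21.5 CPM (568 UMIs) and Prepuberty 2 had 4.36 CPM.

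Markers of other cells also differed between the libraries of the epithelial-like cells. The mesenchymal markers summed to 3334 CPM in Tumor 1 and to 156.1 to 976.3 CPM in the other 5 libraries, and the myoepithelial markers to 2401 CPM against 231.9 to 1107 CPM. The 10 epithelial markers summed to 7476 CPM in Tumor 1 and to 9506 to 16139 CPM in the others. Fibroblast markers stood at 78.0 CPM in Tumor 1, inside the 60.8 to 215.8 CPM of the others. Schwann markers, at 243.3 against 132.5 to 154.2 CPM, macrophage markers, at 116.2 against 29.8 to 90.1 CPM, endothelial markers, at 81.9 against 20.2 to 65.2 CPM, and lymphatic markers, at 33.6 against 2.98 to 8.45 CPM, stood above every other library in Tumor 1. In Tumor 2, where Igfbp5 and H19 were highest in the clusters made without integration, other sets stood above every other library. Neutrophil markers stood at 121.4 against 8.02 to 40.4 CPM and mast markers at 181.0 against 21.7 to 72.1 CPM. Red cell markers stood at 141.7 against 0 to 27.1 CPM and pericyte markers at 48.8 against 18.8 to 30.4 CPM. Muscle markers stood at 11.3 against 2.32 to 8.49 CPM. The part of all these markers in the Igfbp and H19 levels was not tested.

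H19 levels differed widely between libraries and classes. Its gene lies at chr7:142575529-142578143 (GRCm38, minus strand, GENCODE M21), 72622 bases from Igf2. Within it lies the hairpin of miR-675, whose mature strands are printed here since they are the known small RNA products of the transcript. They were not measured, and the counts are of H19 transcripts. The capitals mark the seed, bases 2 to 8 (RefSeq, GRCm38.p6, chr7:142577112-142577133 and chr7:142577078-142577099, minus strand), and the strands have different seeds.
mmu-miR-675-5p: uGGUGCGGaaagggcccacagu
mmu-miR-675-3p: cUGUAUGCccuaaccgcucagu

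In fibroblast-like cells H19 stood at 27.0 CPM (596 UMIs) in Prepuberty 1 and 9.78 CPM (152 UMIs) in Prepuberty 2. DCIS 1 had 0 UMIs of it and DCIS 2 had 1.68 CPM (14 UMIs), whereas Tumor 1 had 153.5 CPM (244 UMIs) and Tumor 2 had 3.42 CPM (1 UMI). Summed over a library, Tumor 1 was the highest, and this turned with the clustering. After integration the fibroblast-like cells without a T-antigen UMI held 123.3 CPM in Tumor 1 (184 cells) and 337.2 CPM in Tumor 2 (152 cells, 723 UMIs). The interval of Tumor 2, 0.0867 to 19.1 CPM, reached the levels of Prepuberty 2, and a count of 0 in DCIS 1 allowed up to 0.588 CPM, taken as 3 counts of the total. The fitted log2 difference of Tumor against DCIS went from 6.10 (SE 1.47) to 1.03 without Tumor 1 and to 12.36 without DCIS 2. It is no bound, since 1 library was at 0.

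**Figure D5:**
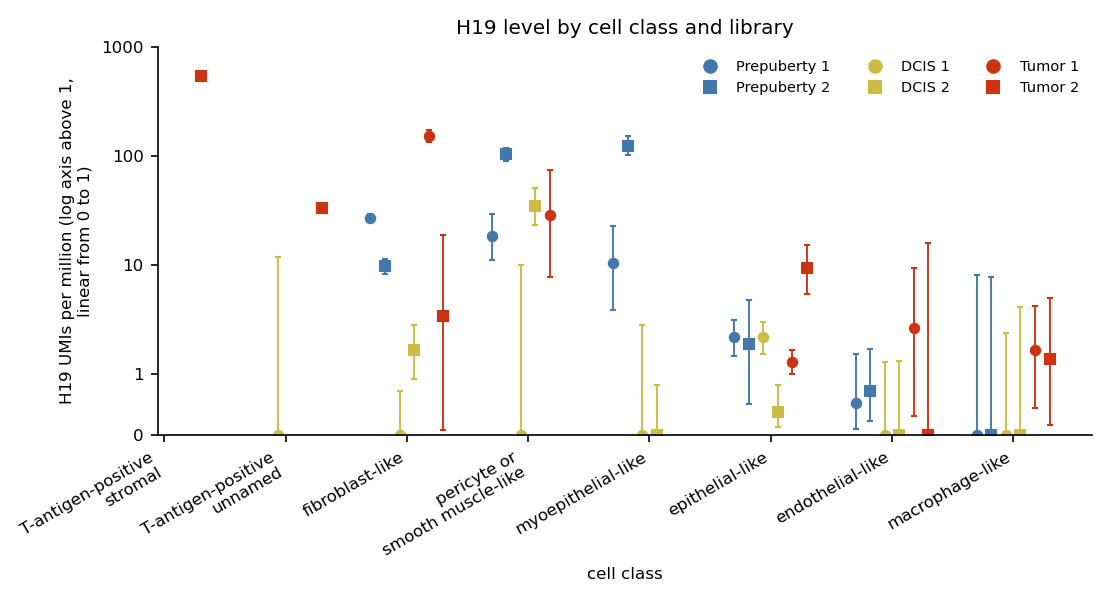
H19 level in 8 cell classes, 1 point per library with at least 10 cells of the class, as CPM on an axis that is linear from 0 to 1 and logarithmic above, with exact 95% Poisson intervals. The T-antigen-positive stromal cells of Tumor 2 stood at 543.9 CPM, the fibroblast-like cells of Tumor 1 at 153.5 CPM, and DCIS libraries were at or near 0 in most classes.

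T-antigen-positive stromal cells held the highest H19 level of all classes, 543.9 CPM (1614 UMIs, 517.7 to 571.1). H19 was also the leading gene of their cluster, so that this level is part of what separated them. The fibroblast-like cells of the same library held 1 UMI, a ratio of 158.8 with an interval of 28.5 to 6278. In a comparison chosen after seeing the data, integration before clustering put T-antigen-positive stromal cells among the fibroblast-like clusters, and H19 of fibroblast-like Tumor 2 cells with a T-antigen UMI was then 1.25 times (1.14 to 1.37) that of cells without one.

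H19 was compared between cells with and without a T-antigen UMI in 3 sets of cells. In the T-antigen-positive stromal cluster it was 523.6 CPM (490.7 to 558.0) in cells with a T-antigen UMI and 575.7 CPM (532.8 to 621.0) in cells without. In the fibroblast-like clusters of Tumor 1 it was 140.1 CPM (104.6 to 183.7) with and 153.5 CPM (134.8 to 174.0) without. Macrophage-like cells, which should lack T antigen, had a T-antigen UMI in 5.30% of cells in Tumor 1 and 0.690% in Tumor 2, and no likeness is read from the intervals of the 28 cells of Tumor 1. In the unnamed T-antigen-positive clusters 11 and 12 of Tumor 2, H19 stood at 38.6 CPM (36.2 to 41.2) with one and 21.4 CPM (18.7 to 24.4) without. The cells differed in depth (median 21254 and 13343.5 UMIs). Of the H19 UMIs of these clusters 37.4% came from 10 cells and 116 from 1 cell, which the intervals do not cover. A T-antigen UMI was found in 67.5% of cells of cluster 11 and 50.5% of cluster 12, so the split also mixes clusters.

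H19 was carried by a minority of cells. In T-antigen-positive stromal cells 32.1% (59 of 184) had an H19 UMI, and 21.7% (15.8 to 28.6) at 3000 UMIs per cell. Of their H19 UMIs, 61.8% came from 10 cells and 126 from 1 cell. In the fibroblast-like cells of Tumor 1 the shares were 28.4% (42 of 148) and, thinned, 19.3% (13.0 to 26.9), and 66.0% of UMIs came from 10 cells. Macrophage-like cells, which should lack H19, gave a background of 1.01% in Tumor 1 (median 5310.5 UMIs) and 1.38% in Tumor 2 (median 8735), or 0.619% and 0 of 132 when thinned, which allows a share of up to 2.27%. The T-antigen-positive stromal and Tumor 1 fibroblast-like cells had medians of 14440.5 and 10549.5 UMIs.

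Among the fibroblast-like cells of Prepuberty, H19 had its highest level in cluster 5, with Wnt2, Mfap2 and Mmp11 among its leading genes. That cluster held 560 of the 596 UMIs in Prepuberty 1 and 69 of the 152 in Prepuberty 2, where cluster 0 held 78. There H19 stood at 39.5 CPM (36.3 to 42.9) in Prepuberty 1 and 134.5 CPM (104.6 to 170.2) in Prepuberty 2, against 3.01 to 6.78 CPM and 0.697 to 9.92 CPM in clusters 3 and 0 of the same libraries. The 21 cells of cluster 5 in DCIS 2 held none, which allows up to 19.7 CPM by the same 3 counts.

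Epithelial-like and endothelial-like cells held little H19 in the clusters made without integration. Epithelial levels, in the order Prepuberty 1 and 2, DCIS 1 and 2, Tumor 1 and 2, were 2.21, 1.89, 2.19, 0.382, 1.31 and 9.52 CPM, and no comparison passed, with adjusted p between 0.501 and 0.830 (edgeR). Endothelial levels were 2.64 CPM or less, below the filter on low counts. After integration the epithelial-like cells of Tumor 2 held 20.3 CPM of H19 (537 UMIs).

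The wider IGF pathway was read from a list of 39 other genes, all of them counted: receptors, proteases, mRNA-binding proteins and signalling steps. This list was made with earlier results of these data known, so the shares of it that passed are a description in every class. In fibroblast-like cells 32 were tested, and for Tumor against DCIS Irs1 and Pappa were higher and Eif4ebp1 and Igf2bp2 lower, 12.5% of the list beside 3.02% of all genes. For Tumor against Prepuberty Irs1, Pappa, Htra3 and Igf2r were higher and Igf2bp2 was lower, 15.6% beside 3.35%. The list's median log2 fold change was 0.39 and 0.52, beside 0.02 and -0.05 over all genes. For DCIS against Prepuberty 0 of 32 passed by edgeR.

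Igf2bp2, an mRNA-binding protein, stood at 65.8 and 54.9 CPM in fibroblast-like cells of Prepuberty, 70.6 and 62.8 CPM in DCIS, and 1.89 and 6.85 CPM in Tumor (log2 fold change against DCIS -4.98, SE 0.57, adjusted p 0.0114, edgeR). Pappa, the protease that cuts Igfbp4, stood at 1.18, 1.48, 1.76 and 1.32 CPM in the earlier libraries, 62.9 CPM in Tumor 1 and 6.85 CPM in Tumor 2, which was 2 UMIs (4.29, SE 0.85, adjusted p 0.0411, edgeR). Irs1, the adaptor of the activated receptor, stood at 24.5 and 41.1 CPM in Tumor and at 1.48 to 3.80 CPM before (2.74, SE 0.60, adjusted p 0.0490, edgeR). Eif4ebp1, a translation repressor under mTOR, stood at 239.0 and 150.7 CPM in Tumor and at 614.1 to 963.1 CPM before (-2.68, SE 0.48, adjusted p 0.0328, edgeR). In all 4 the Tumor libraries lay outside the range of the others.

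Htra3, a serine protease, stood at 230.8 and 633.5 CPM in Tumor fibroblasts and at 38.4 and 24.1 CPM in Prepuberty (3.35, SE 0.73, adjusted p 0.0479, edgeR), with DCIS between them at 159.7 and 40.3 CPM. In endothelial-like cells 29 of the list were tested. For Tumor against DCIS Grb10, an adaptor that inhibits the insulin and IGF-I receptors, was higher and Eif4ebp1 lower, and for Tumor against Prepuberty Insr, the insulin receptor, and Grb10 were higher, in each case 6.90% of the list beside 14.4% and 12.9% of all genes. Insr stood at 129.3 and 287.2 CPM in Tumor, 69.8 and 51.4 CPM in DCIS and 37.3 and 26.8 CPM in Prepuberty (2.55 against Prepuberty, SE 0.39, adjusted p 0.00490, edgeR), while Igf1r fell. The list's median was -0.08 against DCIS and -0.22 against Prepuberty, beside -0.05 and -0.05 over all genes. In epithelial-like cells 0 of 34 passed by edgeR in each of the 3 comparisons.

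Imprinted genes other than H19 and Igf2 were read from a list of 30, of which 28 were counted. It too was made with earlier results of these data known, and its shares are a description in every class. In fibroblast-like cells 18 were tested and Plagl1, Meg3 and Mirg were higher for Tumor against DCIS and also against Prepuberty, with Peg3 in the latter, and 0 were lower. These were 16.7% and 22.2% of the list, beside 3.02% and 3.35% of all genes. Meg3, a maternally expressed long non-coding RNA, stood at 218.5 and 103.2 CPM in Prepuberty, 234.0 and 182.3 CPM in DCIS, and 2642 and 1739.6 CPM in Tumor, where both libraries were high (2.89 against DCIS, SE 0.57, adjusted p 0.0400, edgeR). Plagl1, a zinc finger factor, stood at 81.8 and 10.3 CPM in Tumor and at 1.67 to 2.74 CPM before (3.996 against DCIS, SE 0.81, adjusted p 0.0413, edgeR), and Tumor 2 held 3 UMIs of it.

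In endothelial-like cells 18 imprinted genes were tested. Sgce, Mest and Grb10 were higher and Dcn and Impact lower for Tumor against DCIS, and the same 5 passed against Prepuberty, with Gatm higher as well, 27.8% and 33.3% of the list beside 14.4% and 12.9% of all genes. Mest stood at 34.0, 53.1, 14.7 and 35.3 CPM in the earlier libraries and at 364.2 and 448.2 CPM in Tumor (3.68 against DCIS, SE 0.38, adjusted p 0.00146, edgeR). Grb10, which is in both lists, stood at 25 to 34.2 CPM before and at 105.6 and 130.6 CPM in Tumor (1.57 against DCIS, SE 0.24, adjusted p 0.00516, edgeR). The list's median was -0.56 and -0.65, below 0 although more of its called genes were higher than lower. The Tumor comparisons with DCIS and with Prepuberty share the Tumor libraries.

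The patterns most like that of H19 were sought over the 19 library sums of the 4 classes among 9568 genes. Cemip, Podnl1, Kif26b, Adamts16 and Olfr810 had the highest Pearson correlations of log2 (CPM + 1), 0.89, 0.86, 0.85, 0.84 and 0.83, and 0.81, 0.73, 0.80, 0.75 and 0.72 without the T-antigen-positive stromal point. For Igf2, Slitrk6, Ntrk3, Angptl7, Ibsp and Hapln1 had correlations of 0.86 to 0.85, and between 0.28 and -0.13 without that point. The sums share libraries and depth, and the correlations are a description.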

How the data were processed

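Single-cell 3′ RNA-seq libraries of 3 disease states were used as the deposited filtered matrices of UMI counts, made by the authors with Cell Ranger 3.0.2 per the file headers. The submitters' processing notes also list STAR, SAMtools, Picard and Salmon and the mm10 build; which of them made the counts is not given in the sources used here. The counts include the SV40 large T antigen.

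Of 23835 barcodes, 546 with under 200 genes, 1045 with 10% or more mitochondrial UMIs and 707 doublets were removed; Scrublet (scanpy 1.11.5) ranked cells, and the top 0.8% per 1000 cells were taken because its own threshold marked 32. Clusters came from Seurat 5.3.0 (2000 variable genes, 20 principal components, resolution 0.8, no integration). Classes needed 3 markers, each in 25% of cells and 2-fold above the rest, a rule set after the clusters were seen. Counts were summed per library and class and tested with edgeR 4.0.16 (quasi-likelihood, TMM, filterByExpr, 1 coefficient per state; Benjamini-Hochberg threshold 0.05), with DESeq2 1.42.0 as an alternative. Library sums held 28564804 to 57189896 UMIs. For shares of cells, cells were thinned to 3000 UMIs.

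On simulated data of Tumor against DCIS, 71% of 16-fold changes were recovered in fibroblast-like (11228 genes), 99% in epithelial-like (13143 genes) and 80% in endothelial-like cells (10294 genes), and 31%, 35% and 60% of 4-fold changes. The simulation gave all genes of a class the same spread and changed only genes above a floor of UMIs. Real genes vary more unevenly, so these shares do not say what a missing call means. In the real epithelial-like fit of this comparison Igfbp6, at 4.87 (SE 1.62), did not pass (adjusted p 0.189, edgeR). Gene names came from the files and positions from GENCODE M21 (30934 of 31055 features matched). The members and lists were chosen with earlier results of these data known. Named genes were the members, up to 4 called genes of largest change per list and comparison, and the 5 genes most like H19 and Igf2; the other called list genes and leading genes of clusters were named after their values were seen.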

Additional observations from a re-analysis of the deposited data

Results flagged for a closer look

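The CPM of Igf1r differed between states in opposite directions in different classes, with no overlap between the libraries of the states compared, and these differences between classes were not tested. Of the differences named here, the falls in the endothelial-like cells of Tumor passed the edgeR test; the epithelial ones and DCIS against Prepuberty did not, and the fibroblast ones chose the members and were not tested. Between Tumor and DCIS the mean CPM of Igf1r was 2.35 times as high in fibroblast-like cells and 1.75 times as high in epithelial-like cells, but 0.265 times as high in endothelial-like cells. In the fits, which also scale by TMM factors, these log2 differences were 0.62 (SE 0.39), 0.43 (SE 0.28) and -2.14 (SE 0.31). Between Tumor and Prepuberty it was 1.96 times as high in fibroblast-like and 0.326 times as high in endothelial-like cells. Between DCIS and Prepuberty it was 1.23 times as high in endothelial-like and 0.596 times as high in epithelial-like cells. No group had enough libraries for a search for single outlying libraries.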

How the results depend on the processing

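The fibroblast-like, epithelial-like and endothelial-like classes rested on 2 libraries a state and the T-antigen-positive stromal class on Tumor 2 alone, and the fibroblast-like and endothelial-like Tumor classes on 148 cells or fewer per library. Over 13 alternatives, the endothelial calls of Igfbp3 in both Tumor comparisons and of Igf1r against DCIS held; of Igf1r, Igfbp4 and Igfbp7 against Prepuberty 1, 2 and 9 were lost. No value with a call changed its direction. Counts of genes called moved by more than 1.5 times under several settings, and the cause was not tested except where fewer UMIs or genes entered by construction.

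For DCIS against Prepuberty, Tumor against DCIS and Tumor against Prepuberty in turn, edgeR called 0, 348 and 386 genes in fibroblast-like cells, DESeq2 75, 1122 and 1039, and edgeR with no filter on low counts 293, 1581 and 1672. In epithelial-like cells the counts were 0, 0 and 0, then 224, 722 and 923 by DESeq2 and 627, 1336 and 1667 with no filter. In endothelial-like cells they were 0, 1519 and 1360, then 65 by DESeq2 in the first comparison and 498, 2384 and 2244 with no filter. With no filter further members were called: in endothelial-like cells Igf1 and Igfbp5 for DCIS against Prepuberty, Igfbp4 for Tumor against DCIS and Igfbp5 for Tumor against Prepuberty, in fibroblast-like cells H19, Igf1, Igfbp2, Igfbp3 and Igfbp4 for DCIS against Prepuberty, and in epithelial-like cells 4 (Igfbp3, Igfbp5, Igfbp6 and Igfbp7), 3 (Igfbp4, Igfbp5 and Igfbp6) and 3 (Igfbp3, Igfbp4 and Igfbp6) in the 3 comparisons. Thinned sums gave 183 and 205 in fibroblast-like Tumor comparisons, 579 and 602 in endothelial-like ones, and 1 and 1 in epithelial-like cells for the first 2 comparisons. Integrated clusters gave 1364 and 913 in fibroblast-like and 161 and 822 in epithelial-like Tumor comparisons. They gave an H19 ratio of 1.25 between fibroblast-like Tumor 2 cells with and without a T-antigen UMI. Compared over the fibroblast-like, epithelial-like and endothelial-like classes only, 9 of 10 members kept the class of their highest mean CPM.

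With 1 library left out, the lone library of its state being assumed to vary like the others, the counts ran, in the same order, from 0 to 4, 15 to 444 and 17 to 393 in fibroblast-like cells. Of these, Tumor against DCIS fell to 67 genes without DCIS 1, 15 without DCIS 2, 169 without Tumor 1 and 171 without Tumor 2, and Tumor against Prepuberty to 142 without Prepuberty 1, 17 without Prepuberty 2 and 131 without Tumor 1. They ran from 0 to 22, 0 to 1520 and 0 to 2160 in epithelial-like cells, the highest Tumor counts without Tumor 2, and from 0 to 13, 595 to 1268 and 607 to 1173 in endothelial-like cells, where each library of the states compared, left out, took the Tumor counts to 900 or fewer. Members called ran from 0 to 1 in fibroblast-like cells, 0 to 0, 0 to 2 and 0 to 3 in epithelial-like cells, and 0 to 1, 2 to 3 and 2 to 3 in endothelial-like cells. Calls in the IGF list, summed over 9 comparisons, were 13, with 30 by DESeq2, 44 with no filter and 8 to 14 with 1 library left out, the lowest without Prepuberty 2 and without DCIS 1. In the imprinted list they were 18, with 31, 49 and 12 to 27, and 11 with thinned sums.

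The labels do not say whether same-numbered libraries share a batch. Same-numbered deviations correlated at 0.36 between Prepuberty and DCIS in fibroblast-like and in endothelial-like cells. They correlated at 0.21 between DCIS and Tumor in epithelial-like cells and at -0.03 to 0.098 otherwise. With the replicate number as a block, the counts were 17 and 527 for the first 2 comparisons in fibroblast-like cells, 7 in epithelial-like cells of Tumor against Prepuberty, 104 in endothelial-like cells of DCIS against Prepuberty and 20 in the IGF list. The block added calls of Igfbp4 (1.11, adjusted p 0.0138, edgeR) and Igfbp7 (0.85, adjusted p 0.0109, edgeR) in endothelial-like cells for Tumor against DCIS, and of Igfbp2 (6.31, adjusted p 0.0280, edgeR) in fibroblast-like cells for DCIS against Prepuberty.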

Other observations

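Outside the 4 classes, Igf1 was also found in macrophage-like cells, whose tissue-resident kinds are a known source of IGF-I. It stood at 46.1 and 51.1 CPM in Prepuberty, 22.8 and 22.7 CPM in DCIS, and 7.49 and 6.27 CPM in Tumor, on 9 to 35 UMIs a library. The 3 states did not overlap, in the opposite order to that of fibroblast-like cells. Most Tumor macrophage-like cells lay in another cluster (337 of 396 and 107 of 145 in cluster 17) than those of the earlier glands. At 3000 UMIs per cell, 7.58% and 9.09% of Prepuberty, 5.95% and 3.51% of DCIS, and 2.17% and 1.52% of Tumor cells had an Igf1 UMI.

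Myoepithelial-like cells, the contractile outer layer of the ducts, were rich in Igfbp2 and Igf1r. Igfbp2 stood at 502.9 and 390.3 CPM in Prepuberty and at 157.2 and 214.1 CPM in DCIS, and Igf1r at 77.6, 88.4, 71.7 and 90.02 CPM in the same 4 libraries. Igfbp2 did not overlap between the states and Igf1r did. H19 was at 10.6 CPM (6 UMIs) in Prepuberty 1 and 125.1 CPM (99 UMIs in 21 cells) in Prepuberty 2, with no UMI in either DCIS library. In pericyte or smooth muscle-like cells of Prepuberty 2, 201 H19 UMIs came from 7 of 407 cells, 90 of them from 1 cell. The level of H19 in that class was 104.0 CPM there, 18.7 CPM in Prepuberty 1, 0 in DCIS 1 (which allows up to 8.20 CPM), 35.3 CPM in DCIS 2 (27 UMIs in 5 of 197 cells) and 28.9 CPM in Tumor 1 (4 UMIs in 1 cell).

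Igfbp6 was highest in cluster 13, which had no cell type name and had Igfbp6 among its leading genes, at 1695, 1069, 903.3 and 1076 CPM in Prepuberty 1 and 2 and DCIS 1 and 2. Schwann-like cells, at 378.5, 171.1, 310.5 and 538.8 CPM, overlapped the range of fibroblast-like cells, which ranked between them and cluster 13 by their mean. Igfbp7 stood at 3244 to 4793 CPM in pericyte or smooth muscle-like cells of the early gland and at 14970.0 CPM in the 28 such cells of Tumor 1.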
